A study of Mus musculus with 20 samples.

Results

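The genes described are the Wnt ligands, the Frizzled receptors that bind them, and the Sfrp and Dkk families of secreted inhibitors. They were taken as every gene of the count table whose mouse symbol is Wnt, Fzd, Sfrp or Dkk followed by a number, with or without the letter a or b for the ligands. The rule found 37 of 52783 genes, namely 19 Wnt ligands, 10 Frizzled receptors, 4 Sfrp genes and 4 Dkk genes. Of the 37, 3 ligands had no count in any library, Wnt3a, Wnt7a and Wnt8b.

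Wnt proteins are lipid-modified ligands that act over short distances between neighbouring cells. In the canonical branch, a Wnt binds a Frizzled together with the co-receptor Lrp5 or Lrp6, which stops the destruction of β-catenin and lets it switch on target genes such as Axin2 through TCF and LEF factors. In the other branches, Frizzled and Ror receptors act on cell polarity and movement. Sfrp proteins carry a Frizzled-like domain and bind Wnts outside the cell, whereas Dkk1, Dkk2 and Dkk4 act on Lrp5 and Lrp6, and Dkk3 is a divergent member that does not share this action. In the mammary gland, Wnt signalling is known for its part in ductal growth and stem cells, and the first mammalian Wnt gene was found as a site of virus insertion in mouse mammary tumours.

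The libraries came from primary mammary tumours of female BALB/cJ mice, 8 to 12 weeks old at the start, each injected in the mammary fat pad with 1000000 cells of the syngeneic line 66cl4, whose tumours metastasise, or 67NR, whose tumours do not. Each of the 10 tumours was sorted into CD45+ cells, the leukocytes, and CD45- cells, which hold the tumour cells together with host fibroblasts, vessels and other stroma, and each sorted fraction gave 1 library, so that each of the 4 groups had 5. All mice carried a tumour, and each tumour type was 1 cell line, so metastatic capacity cannot be told apart from any other difference between these lines. The libraries held 12960000 to 28080314 estimated counts, from poly(A)-selected mRNA.

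For 4 libraries, those of 66cl4 animals 5 and 6, the title and the recorded cell type named opposite gates, and the title was followed. In 10 of 10 animals the library titled CD45+ had the higher level of Ptprc, the gene of CD45, by 33.6-fold to 1932-fold, and by 128-fold and 506-fold in 66cl4 animals 5 and 6. The CD45- libraries carried markers of several cell types, and the levels of 10 fibroblast markers summed to 8148 to 14027 normalised counts in the 66cl4 libraries and to 14382 to 22432 in those of 67NR. For 8 epithelial markers the sum was 6113 to 6869.8 in 66cl4 libraries and 148 to 539.8 in 67NR libraries. Of these markers Krt8 carried most in 66cl4 (5353 ± 273), whereas Epcam, a defining surface protein of epithelium, was low in both (12.1 ± 8.98 and 32.8 ± 19.8). The summed level of 4 leukocyte markers in the CD45- libraries was 75.7 to 576 in 66cl4 and 576 to 1437 in 67NR. In bulk RNA of this kind, fewer cells of a type and less RNA per cell cannot be told apart.

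Levels below are counts divided by size factors (normalised counts), which compare 1 gene between libraries, and values after ± are SDs over the 5 libraries of a group. Genes were compared with one another only as TPM, in which counts are divided by transcript length. Between tumours or gates, a gene was called when edgeR's adjusted p was under 0.05 and the log2 fold change beyond 1 in either direction. Log2 fold changes are 66cl4 over 67NR between tumours and CD45+ over CD45- between gates, each with its SE.

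Ranked by TPM, the ligands of 66cl4 CD45- cells were led by Wnt7b at 18.2 ± 1.51 TPM and Wnt9a at 5.33 ± 1.01 TPM, and neither overlapped its neighbour in the order. Wnt7b is a ligand known from lung and brain vessel growth, and Wnt9a from joint formation. Next stood Wnt10a, known from skin, hair and teeth, at 1.02 ± 0.32 TPM and Wnt6, made by many epithelia, at 0.863 ± 0.146 TPM, whose ranges overlapped. The other ligands lay at or below 0.155 ± 0.0955 TPM, the value of Wnt5a, the best known ligand of the non-canonical branches. In each library Wnt7b made on average 69.96% (range 66.6 to 74.6%) and Wnt9a 20.4% (range 17.2 to 23.1%) of the summed ligand TPM. In 67NR CD45- cells the order began with Wnt10a at 0.965 ± 0.335 TPM and Wnt7b at 0.584 ± 0.257 TPM, which overlapped, followed by Wnt5b at 0.391 ± 0.0904 TPM, a close relative of Wnt5a. The summed ligand TPM was 26.03 ± 2.22 in 66cl4 CD45-, 2.6 ± 0.554 in 67NR CD45-, 3.16 ± 0.806 in 66cl4 CD45+ and 1.3 ± 0.266 in 67NR CD45+ cells.

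Among the receptors of 66cl4 CD45- cells, Fzd7 led at 13.4 ± 2.17 TPM without overlap. Fzd6, Fzd1 and Fzd2 followed at 9.41 ± 1.28, 8.9 ± 1.19 and 8.75 ± 0.429 TPM, with ranges that overlapped from one to the next, and Fzd5 stood below them at 3.15 ± 0.357 TPM. Fzd1, Fzd2 and Fzd7 are close relatives, as are Fzd5 and Fzd8, and Fzd3 and Fzd6, which are known from planar cell polarity. In 67NR CD45- cells Fzd2 led at 6.61 ± 1.26 TPM without overlap, and Fzd5, Fzd1, Fzd7 and Fzd4 followed between 2.93 ± 0.57 and 1.997 ± 0.685 TPM, each overlapping the next. Fzd7 was first in both CD45+ groups, at 5.25 ± 0.964 TPM in 66cl4, where it overlapped Fzd1 at 4.75 ± 1.5 TPM, and at 3.93 ± 0.387 TPM in 67NR tumours, where it overlapped none. These orders rest on the median length of each gene's protein-coding transcripts. With the median of all annotated transcripts, fragments included, Fzd6 took rank 1 and Fzd7 rank 2 in 66cl4 CD45- cells.

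**Figure D1:**
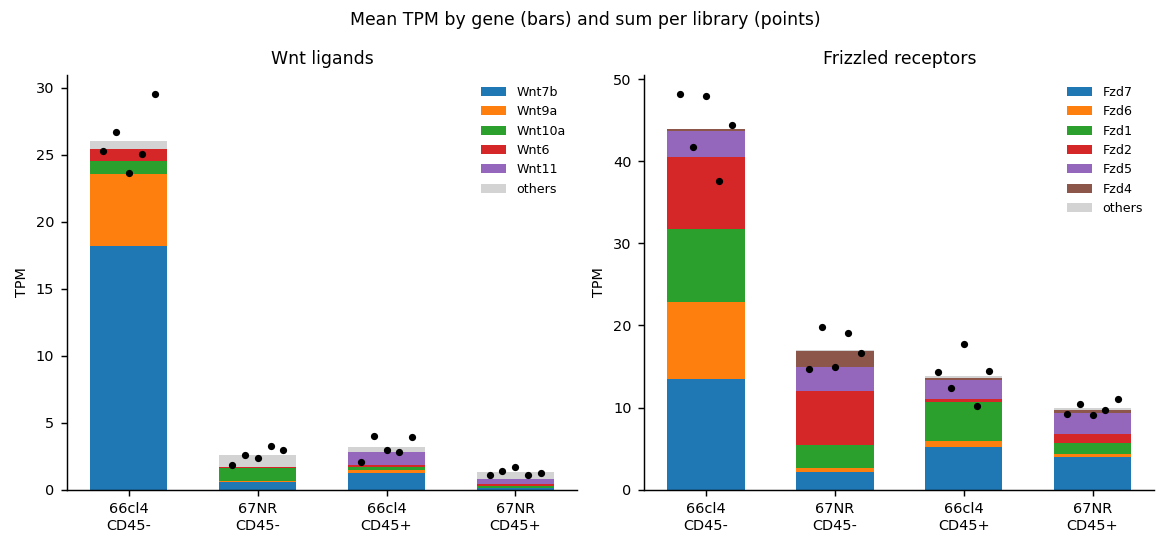
TPM of the Wnt ligands (left) and Frizzled receptors (right) in the 4 groups. Bars stack the group mean of each gene from 0, and points give the sum over the family in each of 5 libraries per group. The ligand bar of 66cl4 CD45- cells is mostly Wnt7b and Wnt9a, and its receptor bar is mostly Fzd7, Fzd6, Fzd1 and Fzd2.

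Sfrp2 and Sfrp4 led the Sfrp genes in both CD45- groups. Sfrp2 stood at 1.8 ± 2.08 TPM in 66cl4 and 2.93 ± 1.29 TPM in 67NR, and Sfrp4 at 0.758 ± 0.508 and 2.64 ± 1.41 TPM, with overlap between the pair in both. Sfrp5 had 0 to 3 counts in every library. Among the Dkk genes, Dkk3 led in CD45- cells at 2.09 ± 0.664 TPM in 66cl4 and 0.588 ± 0.157 TPM in 67NR tumours. Dkk1 had at most 2 counts and Dkk4 at most 1 in any of the 20 libraries.

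Between the CD45- cells of the tumours, 3 ligands (Wnt7b, Wnt9a and Wnt6), 3 receptors (Fzd6, Fzd7 and Fzd1) and Dkk3 were higher in 66cl4, and the ligand Wnt5b, the receptor Fzd4 and Sfrp4 were lower. The group means differed 30.4-fold for Wnt7b, 59.8-fold for Wnt9a and 20.1-fold for Fzd6. Of the 37 members, 16 passed the filter on low counts. Of these, 10 were called, 7 higher and 3 lower, and 6 were not. Of all 14844 genes tested, 32.2% were called, 13.2% higher and 18.9% lower, so a call was common in this comparison. The members that passed are those with counts in at least 1 group. Their share is no evidence on the family as a whole, here or in the comparisons below. The median log2 fold change was 0.46 over the 16 members and -0.01 over all tested genes. The groups did not overlap for 10 of the 16 members, against 52.9% of all genes tested. They did not overlap for 1 of the 16 members that had a count and failed the filter, Dkk2, against 7.85% of such genes.

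Wnt7b levels in CD45- cells were 762, 819, 735, 919 and 903 in the 66cl4 libraries (animals 3 to 7) and 9.65, 26.3, 42.1, 21.1 and 36.8 in the 67NR libraries (animals 1, 4, 5, 6 and 7). All 66cl4 libraries lay above all 67NR libraries. The log2 fold change was 4.97 (SE 0.26, adjusted p = 2.86e-09).

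Wnt9a stood at 268, 301, 194, 224 and 294 in 66cl4 and at 2.63, 6.75, 3.51, 5.47 and 3.07 in 67NR CD45- cells. The 67NR values rest on 3 to 9 counts a library, so Wnt9a was close to the detection limit there and high in every 66cl4 library. Its log2 fold change was 5.86 (SE 0.24, adjusted p = 8.33e-11). The gene next to Wnt9a on chromosome 11 is Wnt3a, which had no count in any of the 20 libraries.

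Wnt6, a member with fewer counts, ranged over 22.3 to 30.9 in 66cl4 CD45- cells and had 0, 1, 1, 0 and 2 counts in the 67NR libraries. The ratio of the group means was 35.1, with a 95% counting interval of 14.7 to 143, and the log2 fold change was 5.06 (SE 0.48, adjusted p = 4.88e-07), a value that depends on the prior count with so few counts in 67NR (5.69 without the library of 67NR animal 7). Its neighbour on chromosome 1 is Wnt10a, which lay at 17.5 to 34.5 in 66cl4 and 13.2 to 32.03 in 67NR and had a log2 fold change of 0.09 (SE 0.29, adjusted p = 0.807). Thus of these neighbours Wnt6 was called and Wnt10a was not. Wnt5b was lower in 66cl4, at 1.33 to 9.56 against 10.2 to 15.6, with a log2 fold change of -1.43 (SE 0.42, adjusted p = 0.00753) and no overlap. Wnt5a was not called, with 3.98 to 19.1 in 66cl4, 3.07 to 15.004 in 67NR and a log2 fold change of 0.52 (SE 0.46, adjusted p = 0.328). The other 13 ligands failed the filter and had at most 29 counts in any CD45- library, the highest being Wnt4.

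**Figure D2:**
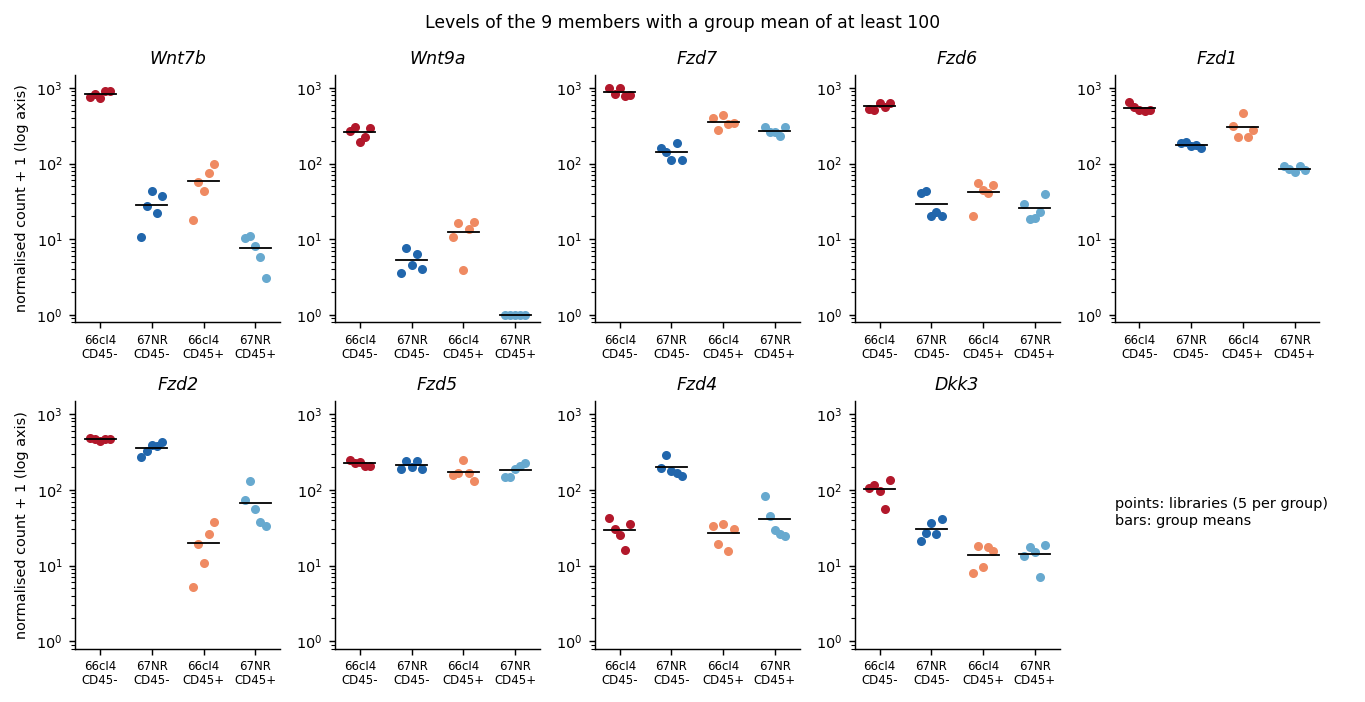
Normalised counts plus 1 on a log axis for the 9 members whose mean reached 100 in at least 1 group. Points are the 5 libraries of each group and bars are group means. Wnt7b, Wnt9a, Fzd7, Fzd6, Fzd1 and Dkk3 are highest in 66cl4 CD45- cells, Fzd4 in 67NR CD45- cells, and Fzd5 overlaps between the tumours.

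Fzd6 levels in CD45- cells were 527, 509.99, 630.2, 556 and 634 in 66cl4 and 39.5, 42.01, 19.3, 21.9 and 19.4 in 67NR tumours. The groups were far apart, and the log2 fold change was 4.34 (SE 0.20, adjusted p = 3.95e-10). Of the 8 epithelial markers 6 were tested in these libraries, and 2 were called higher and 1 lower in 66cl4, with the summed levels given above and no marker at 0. Their part in the differences of Wnt7b, Wnt9a, Wnt6 and the receptors was not tested.

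Fzd7 reached 998, 822, 1001, 771 and 802 in 66cl4 and 161, 141, 109, 184 and 110.5 in 67NR CD45- cells. Its relative Fzd1 was at 646, 553, 505, 493 and 505 in 66cl4 and at 184, 189.8, 168, 176 and 159.5 in 67NR. For both genes every 66cl4 library was above every 67NR library, and the log2 fold change was 2.67 (SE 0.15, adjusted p = 2.06e-09) for Fzd7 and 1.65 (SE 0.10, adjusted p = 4.92e-09) for Fzd1. The third of these relatives, Fzd2, was at 480.5, 465, 445, 465 and 465 and at 267, 325, 389.9, 379 and 429. Here too the groups did not overlap, but the difference was small, at 1.3-fold, and its log2 fold change of 0.41 (SE 0.12, adjusted p = 0.00663) fell short of the fold needed for a call.

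Fzd5 was not called, at 249.5, 226, 231, 204 and 206 in 66cl4 and 188, 242, 201, 236 and 187 in 67NR CD45- cells. The ranges overlapped and the log2 fold change was 0.12 (SE 0.11, adjusted p = 0.373). Fzd4, which also serves as the receptor of Norrin in retinal vessels, went the other way, with 41.1, 29.3, 24.1, 14.9 and 33.9 in 66cl4 and 194, 292, 177.4, 166 and 153 in 67NR. All 66cl4 libraries were below all 67NR libraries, by 6.85-fold in the means, and the log2 fold change was -2.75 (SE 0.25, adjusted p = 2.94e-07). Of 7 endothelial markers tested in the same libraries 6 were called lower in 66cl4. The summed level of the 8 markers on the list was 526 to 1062 in 66cl4 and 1086 to 4372 in 67NR, with no marker at 0. Pecam1 was at 76.01 ± 35.7 and 794 ± 412, but it was also at 948 in the CD45+ cells of 66cl4. In 66cl4 CD45- cells the sum averaged 743, of which Cdh5 made 557. The part of these markers in the Fzd4 difference was not tested. The other 4 receptors, Fzd3, Fzd8, Fzd9 and Fzd10, failed the filter, with at most 9 counts in a CD45- library.

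Dkk3 stood at 105, 115, 96.6, 54.2 and 134 in 66cl4 and 20.2, 25.5, 36.001, 25.000 and 39.9 in 67NR CD45- cells. Every 66cl4 library was higher, the lowest being animal 6, and the log2 fold change was 1.82 (SE 0.26, adjusted p = 2.62e-05). Dkk2 was the reverse. It had 0, 1, 0, 0 and 1 counts in the 66cl4 and 34, 16, 16, 9 and 20 counts in the 67NR libraries. The groups did not overlap and the ratio of the means was 51.4 in favour of 67NR, with a 95% counting interval of 11.99 to 373. The gene failed the filter, and the two-sided exact permutation test of the means gave p = 0.00794, the smallest that 5 against 5 libraries allow and not adjusted for the number of genes.

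Sfrp4 was lower in 66cl4, at 10.6, 19.95, 4.99, 12.7 and 31.9 against 29.8, 25.5, 72.9, 60.2 and 100.2, with some overlap and a log2 fold change of -1.79 (SE 0.47, adjusted p = 0.00456). Sfrp2 stood at 13.3, 41.8, 23.3, 25.5 and 154 in 66cl4 and 53.5, 48.8, 84.3, 127 and 119 in 67NR CD45- cells. Animal 7 was the high library of 66cl4, the groups overlapped, and the log2 fold change was -0.71 (SE 0.60, adjusted p = 0.317). Without that library it was -1.64 (adjusted p = 0.00187) and the gene was called. Sfrp1 lay at 19.98 to 68.9 in 66cl4 and 27.6 to 57.8 in 67NR, with a log2 fold change of -0.04 (SE 0.33, adjusted p = 0.922). Beside these genes, 6 of 10 fibroblast markers and 4 of 5 tested pericyte and smooth muscle markers were called lower in 66cl4 and none and 1 higher, with a summed fibroblast level given above and no fibroblast marker at 0. Their part in the Sfrp differences was not tested.

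For the members called between the CD45- cells that have a window in the RefSeq promoter table of GRCm38.p6, the 250 bases before the annotated start are shown, to set the letters of genes that moved apart side by side. Windows were found for 25 of the 37 members (28 windows). Capitals mark GGGCGG or CCGCCC (the GC box), TATAAA or TTTATA (the TATA box) and ATCAAAG or CTTTGAT (the core bound by TCF and LEF factors), searched on both strands. Neighbouring GC boxes can share letters, and the TCF and LEF core can share its end letter with the other motifs. Wnt9a, Wnt6, Fzd7 and Fzd1 were higher and Fzd4 and Wnt5b were lower in 66cl4 CD45- cells, and Wnt11 is shown for its level in CD45+ cells. Wnt5b has 3 windows and Wnt11 has 2, and for each the one with the TCF and LEF core is shown.
Wnt9a (chr11:59306680-59306929, plus strand): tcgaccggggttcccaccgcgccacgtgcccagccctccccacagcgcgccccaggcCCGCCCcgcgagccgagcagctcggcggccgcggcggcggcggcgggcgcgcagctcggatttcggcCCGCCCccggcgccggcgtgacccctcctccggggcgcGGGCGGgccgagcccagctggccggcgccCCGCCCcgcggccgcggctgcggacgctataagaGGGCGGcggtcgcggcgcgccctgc
Wnt6 (chr1:74771642-74771891, plus strand): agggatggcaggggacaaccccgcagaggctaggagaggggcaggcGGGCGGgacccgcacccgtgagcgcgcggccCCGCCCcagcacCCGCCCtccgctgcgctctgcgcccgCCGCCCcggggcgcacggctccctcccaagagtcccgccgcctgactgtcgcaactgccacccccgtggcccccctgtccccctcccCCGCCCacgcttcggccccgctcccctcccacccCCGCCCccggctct
Fzd7 (chr1:59481897-59482146, plus strand): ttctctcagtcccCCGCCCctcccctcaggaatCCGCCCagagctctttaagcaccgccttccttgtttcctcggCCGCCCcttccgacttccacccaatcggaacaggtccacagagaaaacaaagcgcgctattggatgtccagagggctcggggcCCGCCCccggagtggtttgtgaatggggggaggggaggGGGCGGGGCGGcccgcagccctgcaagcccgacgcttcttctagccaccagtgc
Fzd1 (chr5:4758217-4758466, minus strand): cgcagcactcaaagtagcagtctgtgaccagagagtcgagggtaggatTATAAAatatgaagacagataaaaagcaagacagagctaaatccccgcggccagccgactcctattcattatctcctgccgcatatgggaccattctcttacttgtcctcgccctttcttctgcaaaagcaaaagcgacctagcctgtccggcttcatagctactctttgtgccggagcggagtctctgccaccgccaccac
Fzd4 (chr7:89404116-89404365, plus strand): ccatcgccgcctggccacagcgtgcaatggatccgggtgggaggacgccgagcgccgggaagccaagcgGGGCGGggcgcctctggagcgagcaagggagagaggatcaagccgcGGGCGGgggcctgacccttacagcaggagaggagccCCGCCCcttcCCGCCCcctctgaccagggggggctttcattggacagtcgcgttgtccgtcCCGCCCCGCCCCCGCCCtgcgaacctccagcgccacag
Wnt5b (chr6:119449387-119449636, minus strand): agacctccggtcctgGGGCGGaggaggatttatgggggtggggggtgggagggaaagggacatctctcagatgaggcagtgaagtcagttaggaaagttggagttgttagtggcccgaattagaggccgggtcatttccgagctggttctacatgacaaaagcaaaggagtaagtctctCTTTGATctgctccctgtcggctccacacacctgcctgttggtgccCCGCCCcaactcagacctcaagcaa
Wnt11 (chr7:98834862-98835111, plus strand): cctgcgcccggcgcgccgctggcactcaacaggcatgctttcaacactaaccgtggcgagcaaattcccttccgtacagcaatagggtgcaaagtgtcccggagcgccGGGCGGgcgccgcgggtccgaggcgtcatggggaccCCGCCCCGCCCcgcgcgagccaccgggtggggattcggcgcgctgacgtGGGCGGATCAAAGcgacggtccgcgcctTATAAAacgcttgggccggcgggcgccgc

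The GC box stood in 20 of the 28 member windows, against 32.7% of all 32851 windows of the table, and the median GC content was 69.4% in the member windows and 52.4% in all. Wnt9a had 5 GC boxes, Wnt6 and Fzd7 6 each, Fzd4 7, the window shown for Wnt5b 2, and Fzd1 none. Among the called genes with a window, the GC box was thus present in 3 of 4 that rose and in both that fell. The TCF and LEF core was found in 2 of the 28 windows, 1 of Wnt11 and 1 of Wnt5b, against 3.21% of all windows. The TATA box was found in 4 of the 28, those of Dkk1, Dkk2, Fzd1 and Wnt11, against 12.4% of all. A match is a run of letters and not a binding site. Of the members, 4 pairs are next to each other among protein-coding genes, Wnt6 with Wnt10a, Wnt3a with Wnt9a, Wnt9b with Wnt3 and Wnt10b with Wnt1.

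In CD45+ cells Wnt7b, Fzd1, Wnt11 and Dkk2 were higher in 66cl4 and Fzd2 was lower. Of 11 members that passed the filter these 5 were called, 4 higher and 1 lower, against 11.8% of the 14676 genes tested, 5.01% higher and 6.82% lower. The groups did not overlap for 3 of the 11 (Wnt7b, Fzd1 and Dkk2), against 15.1% of all tested genes. Among the 20 members with a count that failed the filter they did not overlap for 2 (Wnt9a and Fzd3), against 3.37% of such genes. The calls of Wnt11, Dkk2 and Fzd2 were lost in alternatives given beside each.

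Wnt7b in CD45+ cells was at 16.7, 55.4, 42.4, 74.7 and 96.4 in 66cl4 and 9.36, 9.89, 7.11, 4.79 and 2.06 in 67NR. All 66cl4 libraries were above all 67NR libraries, by 8.60-fold in the means, and the log2 fold change was 3.12 (SE 0.51, adjusted p = 0.00146). Wnt9a had 7, 16, 3, 12 and 19 counts in the 66cl4 and 0 in every 67NR library, which is at least 3.2-fold higher against a floor of 3 counts a library (exact permutation p = 0.00794, unadjusted, the smallest possible). In the same libraries the summed level of the 8 epithelial markers was 623 to 960.1 in 66cl4 and 262 to 325 in 67NR. The 66cl4 sum averaged 776, of which Cdh1 made 394, a marker at 20.8 in the CD45- cells of these tumours. This sum thus rests in large part on a marker that was higher in CD45+ cells. Of these, Krt5 and Cldn4 had at most 3 counts in every library of both groups, 2 markers were at 0 in 67NR, and 2 of 4 tested were called higher in 66cl4. The level in CD45+ cells as a percentage of that in CD45- cells of 66cl4 tumours was 6.9% for Wnt7b and 4.42% for Wnt9a. It was 4.03 to 736% with a median of 8.72% over the 10 fibroblast markers. Over the 6 epithelial markers with a mean of at least 10 in a gate it was 5.09% (Krt18) to 1893% (Cdh1), with a median of 22.9%. Over 5 such endothelial markers it was 20.1 to 1248%, with a median of 403%. How far RNA of CD45- cells enters these values was not tested.

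Wnt11, known from cell movements in the embryo and from kidney branching, was at 26.4, 29.6, 45.3, 21.04 and 13.5 in 66cl4 and 9.36, 6.59, 13.2, 11.98 and 14.4 in 67NR CD45+ cells. The 66cl4 mean was 2.45-fold higher, but animal 7 of 66cl4 lay below the highest 67NR library. Wnt11 also stands in gene lists that the study drew from genes higher in these 66cl4 CD45+ libraries, so this difference is not independent of that choice. The log2 fold change was 1.29 (SE 0.36, adjusted p = 0.0241). It was no longer called when the CD45+ library of 66cl4 animal 3 or 5 or of 67NR animal 1 or 4 was left out (1.03 to 1.46 over all 10 such fits, adjusted p 0.0130 to 0.0683). It was also lost without 66cl4 animals 5 and 6, at 1.04 (adjusted p = 0.103). Dkk2 was at 18.1, 20.1, 23.1, 15.8 and 28.7 in 66cl4 and 15.6, 10.99, 7.11, 11.98 and 8.23 in 67NR, with no overlap and a log2 fold change of 1.004 (SE 0.32, adjusted p = 0.0393), just over the fold needed. Its call was lost without any one library except that of 66cl4 animal 6 or 67NR animal 1 (0.86 to 1.15, adjusted p 0.0306 to 0.110), without 66cl4 animals 5 and 6 at 1.06 (adjusted p = 0.0831), and with no filter on low counts at 0.98 (adjusted p = 0.117).

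Fzd1 in CD45+ cells was at 317, 225, 458, 221 and 277 in 66cl4 and 92.1, 84.6, 75.2, 91.1 and 80.2 in 67NR. The groups did not overlap, 66cl4 animal 5 was highest, and the log2 fold change was 1.83 (SE 0.20, adjusted p = 0.000179). The interaction test of this gene is given below. Fzd2 was lower in 66cl4, at 4.17, 18.2, 9.64, 25.3 and 36.3 against 71.8, 129.7, 54.9, 37.1 and 31.9. The ranges overlapped, 67NR animal 4 being highest, and the log2 fold change was -1.76 (SE 0.53, adjusted p = 0.0341). This call was lost without the CD45+ library of 66cl4 animal 3, 4 or 5 or of 67NR animal 1, 4 or 5 (-2.15 to -1.34, adjusted p 0.0197 to 0.0978), and without 66cl4 animals 5 and 6 at -1.69 (adjusted p = 0.112). In the same CD45+ libraries 4 of 10 fibroblast markers were called lower in 66cl4 and none higher, and no marker was at 0. The levels of the 10 summed to 684 to 2548 against 3055 to 4668, without overlap. The 66cl4 sum averaged 1483, of which Thy1 made 838, a marker at 114 in the CD45- cells of these tumours. The sum thus rests in large part on a marker that was higher in CD45+ cells. The part of these markers in the Fzd2 difference was not tested. The level of Fzd2 in CD45+ as a percentage of CD45- cells was 4.03% in 66cl4 and 18.2% in 67NR tumours.

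Fzd7, the leading receptor of CD45+ cells by TPM, was at 399, 273, 441, 329 and 347 in 66cl4 and 299.7, 258, 260.2, 230.1 and 299 in 67NR. The ranges overlapped, and its log2 fold change of 0.42 (SE 0.14, adjusted p = 0.0528) was not called. Fzd6 was at 19.5, 54.5, 43.4, 39.98 and 50.7 and 28.1, 17.6, 18.3, 21.6 and 39.1, with overlap and a log2 fold change of 0.77 (SE 0.33, adjusted p = 0.114). Thus neither of these receptors, called in CD45- cells, was called here.

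Fzd5 was at 154, 165, 249, 166 and 130.2 in 66cl4 and 148, 147, 187, 207 and 222 in 67NR, with a log2 fold change of -0.06 (SE 0.18, adjusted p = 0.849). Fzd4 was at 31.99, 18.2, 34.7, 14.7 and 29.6 and 82.7, 43.97, 28.5, 25.2 and 23.7, and animal 1 of 67NR was the highest. Its log2 fold change was -0.65 (SE 0.41, adjusted p = 0.289). Dkk3 overlapped in full, at 6.95, 17.2, 8.68, 16.8 and 14.4 and 12.5, 16.5, 14.2, 5.99 and 17.5, with a log2 fold change of -0.03 (SE 0.37, adjusted p = 0.965). Fzd8 ranged over 7.64 to 19.5 and 4.68 to 32.9 and had a log2 fold change of 0.07 (SE 0.48, adjusted p = 0.943). Fzd3, a receptor with few counts, had 4, 6, 5, 11 and 9 counts in 66cl4 and 1, 3, 3, 1 and 2 in 67NR, a ratio of 3.16 with a 95% counting interval of 1.49 to 6.97 (exact permutation p = 0.00794, unadjusted). No Sfrp gene passed the filter in CD45+ cells, where the highest count was 27, of Sfrp2 in 66cl4 animal 7. The CD45+ cells of the tumours also differed in makeup. The summed level of 7 neutrophil markers was 44190.5 to 125311 in 66cl4 and 7185 to 52320.3 in 67NR with 5 of 7 called higher and no marker at 0, and 4 of 4 NK cell markers were called lower. Their part in the differences of the members was not tested.

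**Figure D3:**
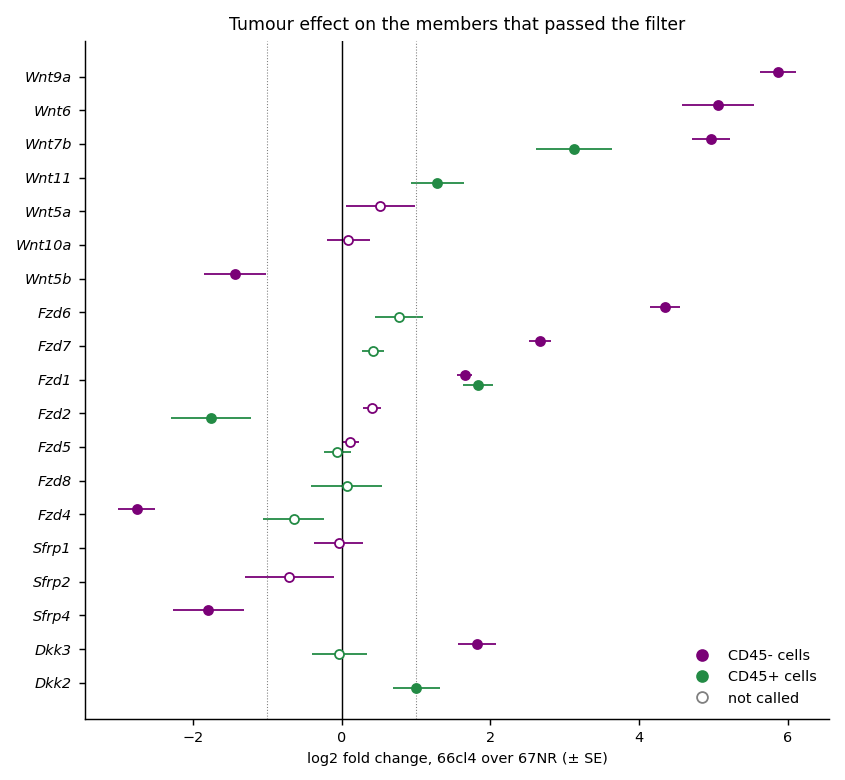
Log2 fold change of 66cl4 over 67NR (point) with its SE (line) for the members that passed the filter in CD45- cells (purple) or CD45+ cells (green). Filled points were called. Wnt9a, Wnt6, Wnt7b and Fzd6 lie furthest to the right and Fzd4 furthest to the left in CD45- cells, and Fzd1 has nearly the same value in both gates.

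Within 66cl4 tumours 10 members were called lower in CD45+ than in CD45- cells, and Wnt11 and Dkk2 were called higher. Of 15 members that passed the filter 12 were called, 2 higher and 10 lower, against 44.4% of 14916 genes tested, 23.9% higher and 20.5% lower. Some passed through 1 gate alone, such as Sfrp1 with 1 to 4 counts in CD45+ and 20 to 69 in CD45- libraries. The shares called here and in 67NR tumours are thus no evidence on the family. The groups did not overlap for 12 of the 15, against 61.4% of all tested genes, and for 3 of 15 that failed the filter, against 11.1%. In 67NR tumours 9 of 13 were called and all 9 were lower in CD45+ cells, against 39.8% of 15063 genes, 20.2% higher and 19.6% lower. There the groups did not overlap for 10 of the 13, against 55.5%, and for 2 of 19 that failed the filter, against 9%. The 2 libraries of an animal were compared as separate samples, and with the animal as a block no call of a member between the gates changed.

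Among the ligands of 66cl4 tumours, the log2 fold change of CD45+ over CD45- cells was -3.85 (SE 0.33, adjusted p = 6.06e-07) for Wnt7b, -4.49 (SE 0.30, adjusted p = 4.85e-08) for Wnt9a, -2.53 (SE 0.26, adjusted p = 1.8e-06) for Wnt6 and -1.98 (SE 0.54, adjusted p = 0.00504) for Wnt10a, each lower in 5 of 5 animals. Wnt11 was the exception. It had 0, 0, 0, 0 and 1 counts in the CD45- libraries against 19, 31, 47, 20 and 16 in the CD45+ libraries of the same animals, a ratio of 136 with a 95% counting interval of 26.2 to 5899. In 67NR tumours it had 0, 1, 0, 1 and 1 against 6, 6, 13, 10 and 14 counts, a ratio of 21.8 with an interval of 7.13 to 111. Wnt11 thus had at most 1 count in any CD45- library and counts in all CD45+ libraries of both tumours. In 67NR it failed the filter, and the exact permutation test gave p = 0.00794, the smallest possible, unadjusted. Wnt10a and Wnt5b were lower in CD45+ cells of 67NR tumours, with a log2 fold change of -2.43 (SE 0.47, adjusted p = 0.000665) and -2.44 (SE 0.37, adjusted p = 0.000117).

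**Figure D4:**
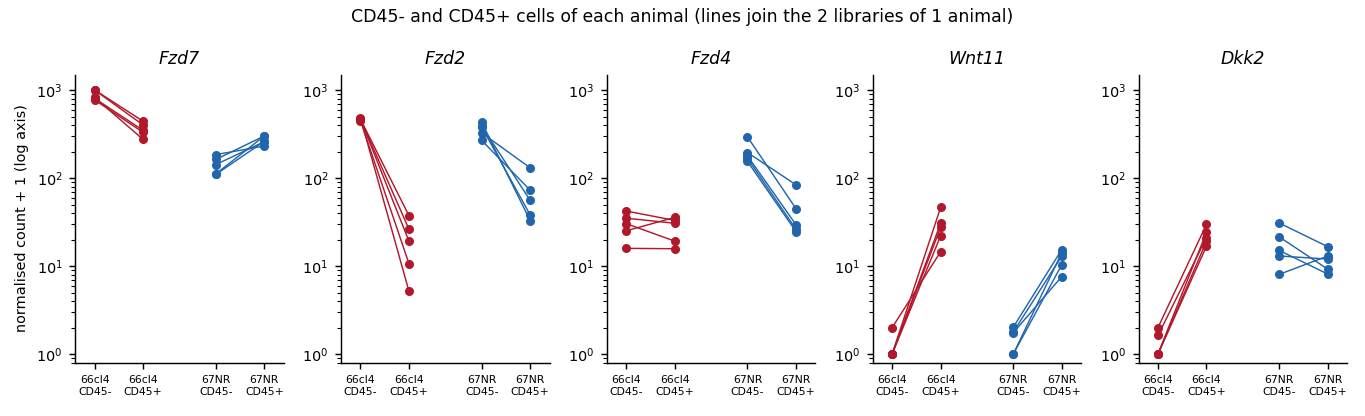
Normalised counts plus 1 on a log axis in the CD45- and CD45+ libraries of each animal, joined by a line, for 66cl4 (red) and 67NR (blue) tumours. Fzd7 runs down in 5 of 5 animals of 66cl4 and up in 5 of 5 of 67NR, Wnt11 runs up in all, and Dkk2 runs up in 66cl4.

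The receptors divided by gate in different ways. Fzd2 was lower in CD45+ cells in 5 of 5 animals of both tumours, with a log2 fold change of -4.59 (SE 0.35, adjusted p = 1.78e-07) in 66cl4 and -2.45 (SE 0.35, adjusted p = 8.62e-05) in 67NR. Fzd6 was lower in 66cl4 at -3.78 (SE 0.21, adjusted p = 1.32e-08) and not called in 67NR at -0.20 (SE 0.33, adjusted p = 0.603). Fzd4 was lower in 67NR at -2.29 (SE 0.35, adjusted p = 0.000137) and not called in 66cl4 at -0.17 (SE 0.32, adjusted p = 0.636). Fzd7 was lower in the CD45+ cells of all 5 animals of 66cl4, at -1.33 (SE 0.14, adjusted p = 1.94e-06), and higher in those of all 5 of 67NR, at 0.93 (SE 0.16, adjusted p = 0.000363), where the fold fell just short of a call, though not without the CD45- library of animal 6, at 1.06. Fzd1 had lower levels in CD45+ cells of all 10 animals, at -0.88 (SE 0.19, adjusted p = 0.000942) in 66cl4, short of a call except without the CD45+ library of animal 5 (-1.08) or without animals 5 and 6 (-1.10), and -1.05 (SE 0.12, adjusted p = 1.61e-05) in 67NR, a call lost at -0.97 without the CD45+ library of 67NR animal 7. Fzd5 was not called in either, at -0.40 (SE 0.16, adjusted p = 0.0422) and -0.21 (SE 0.14, adjusted p = 0.202). Fzd8 had 0 to 3 counts in CD45- and 8 to 20 in CD45+ cells of 66cl4, with no overlap and a ratio of 9.63 (95% counting interval 4.97 to 24.8, exact permutation p = 0.00794, unadjusted).

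The inhibitors that were tested, other than Dkk2, were lower in CD45+ cells. In 67NR tumours the log2 fold change was -2.41 (SE 0.38, adjusted p = 0.000164) for Sfrp1, -3.97 (SE 0.48, adjusted p = 2.33e-05) for Sfrp2 and -3.16 (SE 0.62, adjusted p = 0.000762) for Sfrp4. In 66cl4 tumours it was -3.93 (SE 0.46, adjusted p = 6.62e-06) for Sfrp1 and -2.90 (SE 0.87, adjusted p = 0.0103) for Sfrp2, and the latter was not called without animals 5 and 6, at -2.87 (adjusted p = 0.0562). For Sfrp2 it was -1.93 without the CD45- library and -4.36 without the CD45+ library of animal 7, called in both. Dkk3 was lower, at -2.97 (SE 0.31, adjusted p = 2.02e-06) in 66cl4 and -1.12 (SE 0.31, adjusted p = 0.00796) in 67NR, and the second call was lost without the CD45- library of 67NR animal 7, at -0.99, or the CD45+ library of animal 6, at -0.92. Dkk2 rose from 0 to 0.998 in CD45- to 15.8 to 28.7 in CD45+ cells of 66cl4, higher in 5 of 5 animals, with a ratio of 65.2 and a 95% counting interval of 16.1 to 499. In 67NR tumours Dkk2 was at 7.03 to 29.8 in CD45- and 7.11 to 15.6 in CD45+ cells, and its log2 fold change of -0.64 (SE 0.41, adjusted p = 0.184) was not called.

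An interaction term in a fit of the 20 libraries asked whether the gates differed in their tumour effect. Here a call needed only an adjusted p under 0.05, with no fold threshold, so its share is not comparable with those above. Of 19 members that passed the filter 8 were called, 2 higher and 6 lower, against 43.1% of 16453 genes, 21.9% higher and 21.2% lower. The difference of the log2 fold changes, CD45+ minus CD45-, was -2.24 (SE 0.21, adjusted p = 7.74e-08) for Fzd7 and -3.56 (SE 0.39, adjusted p = 4.92e-07) for Fzd6, both called between the tumours in CD45- and not in CD45+ cells. It was -2.12 (SE 0.51, adjusted p = 0.0025) for Fzd2 and 2.14 (SE 0.48, adjusted p = 0.00139) for Fzd4, the receptor with the opposite tumour effect in CD45- cells. For Fzd1 it was 0.19 (SE 0.22, adjusted p = 0.519) and for Fzd5 -0.17 (SE 0.22, adjusted p = 0.557), neither called. Among the ligands it was -1.80 (SE 0.64, adjusted p = 0.0288) for Wnt7b and -4.71 (SE 0.83, adjusted p = 0.00014) for Wnt6, and 0.73 (SE 0.52, adjusted p = 0.293) for Wnt9a, which was not called. The call of Wnt7b was lost without the CD45+ library of 67NR animal 1, 4 or 5 (-2.18 to -1.58 over 20 such fits, adjusted p 0.00808 to 0.0883), without 66cl4 animals 5 and 6 at -1.76 (adjusted p = 0.0778), and with no filter on low counts at -1.85 (adjusted p = 0.0558). Among the inhibitors it was -1.84 (SE 0.45, adjusted p = 0.0025) for Dkk3 and 6.11 (SE 0.71, adjusted p = 1.06e-06) for Dkk2, and no Sfrp gene was called. Sfrp1, at -1.504 (SE 0.62, adjusted p = 0.0555), became called with a filter of 10 counts in 5 libraries (-1.61, adjusted p = 0.0427) and without any one of 6 libraries, the CD45- library of 66cl4 animal 3, 4 or 5 or 67NR animal 6, or the CD45+ library of 66cl4 animal 4 or 67NR animal 7 (-1.90 to -1.67). Wnt11, at 2.32 (SE 1.16, adjusted p = 0.135), became called without the CD45- library of 66cl4 animal 7, which held the only count of its group (3.65, adjusted p = 0.0372). Fzd8, at 1.86 (SE 0.83, adjusted p = 0.0755), became called without either of 2 libraries. These were the CD45- library of 66cl4 animal 3 (2.24, adjusted p = 0.0447) and the CD45+ library of 67NR animal 7 (2.40, adjusted p = 0.0178). The fitted values of Dkk2 and Wnt6 depend on the prior count, since 1 of their groups held 2 and 4 counts in all. Without the CD45- library of 67NR animal 7 the value of Wnt6 was -5.42.

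Of 73 other genes of the pathway in 6 lists, 51 were tested between the CD45- cells, and 11 were called higher and 9 lower in 66cl4. These 20 are 39.2% of the 51, against the 32.2% of all tested genes given above, 13.2% higher and 18.9% lower, and the counts of the single lists below stand against the same shares. In secretion, Porcn, the enzyme that adds the lipid to Wnts, was at 55.3 ± 7.82 in 66cl4 and 25.5 ± 5.25 in 67NR, with a log2 fold change of 1.15 (SE 0.21, adjusted p = 0.000236). Wls, which carries Wnts to the cell surface, was at 5805 ± 228 and 3613 ± 288 and was not called, at 0.72 (SE 0.08, adjusted p = 2.3e-06). Notum, a secreted enzyme that removes the lipid, was at 62.01 ± 16.5 in 67NR and had a count in 1 of 5 libraries of 66cl4, with a range of 0 to 0.623 and a log2 fold change of -7.72 (SE 0.50, adjusted p = 9.2e-09), a fitted value that depends on the prior count. In all, 1 of 5 secretion genes was called higher and 1 lower.

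Of 13 co-receptors and genes of receptor turnover 10 were tested, and 1 was called higher and 2 lower. Lrp5 and Lrp6 were not called, at 0.05 (SE 0.11, adjusted p = 0.732) and 0.60 (SE 0.10, adjusted p = 0.000105). Ror1, a receptor of Wnt5a, was at 5.9 ± 2.85 in 66cl4 and 277 ± 52.4 in 67NR CD45- cells, with a log2 fold change of -5.58 (SE 0.27, adjusted p = 5.33e-10), and Lgr6, a receptor of R-spondins, was at 12.8 ± 4.06 and 288 ± 60.1, at -4.48 (SE 0.24, adjusted p = 1.03e-09). Reck, which with Adgra2 makes cells respond to Wnt7 ligands, was at 482 ± 50.6 and 244 ± 26.4, and was called at 1.01 (SE 0.10, adjusted p = 1.07e-06). Ror2 failed the filter, with levels of 0 to 2.65 and 1.75 to 10.2. Of the 13 other secreted regulators 3 were tested and none was called. Among those that failed the filter, Frzb ranged over 0 to 0.832 and 0 to 1.5, Wif1 over 0 to 9.56 and 0.877 to 7.03, and Rspo3 was 0 in every 66cl4 library and ranged over 0 to 2.05 in 67NR.

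Among 15 nuclear transducers and feedback targets 10 were tested, and 5 were called higher and 2 lower. Axin2, the feedback target most often used as a readout of the canonical branch, was at 411 ± 63.2 in 66cl4 and 26.5 ± 5.42 in 67NR CD45- cells, with a log2 fold change of 3.98 (SE 0.16, adjusted p = 9.84e-11) and no overlap. Ccn4, a target first described in Wnt1-transformed mammary cells, was at 400.4 ± 46.6 and 7.55 ± 2.2, at 5.72 (SE 0.18, adjusted p = 7.86e-12). Tcf7l1, which mostly represses targets, was at 2.86 ± 1.42 and 121 ± 37.8, at -5.30 (SE 0.35, adjusted p = 1.03e-08). Lef1 failed the filter in CD45- cells, with 0 to 8.98 and 2.63 to 11.3, and stood at 739.8 ± 582 in 66cl4 and 289 ± 228 in 67NR CD45+ cells without a call (1.40, adjusted p = 0.250). Of 15 cytoplasmic genes, all tested, 2 were called higher and 2 lower, among them Btrc, which marks β-catenin for destruction, at 1.26 (SE 0.08, adjusted p = 1.03e-08), Tnks2, which turns over axin, at 1.20 (SE 0.11, adjusted p = 3.72e-07), and Apc2, a relative of Apc, at -4.85 (SE 0.46, adjusted p = 4.24e-07). Of 12 planar polarity genes 8 were tested and 2 were called higher and 2 lower, with Daam2 at 4.19 (SE 0.35, adjusted p = 9.61e-07), Prickle3 at -5.11 (SE 0.39, adjusted p = 4.64e-08) and Prickle2 at -2.71 (SE 0.32, adjusted p = 4.59e-06). The lists thus held genes of both directions.

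**Figure D5:**
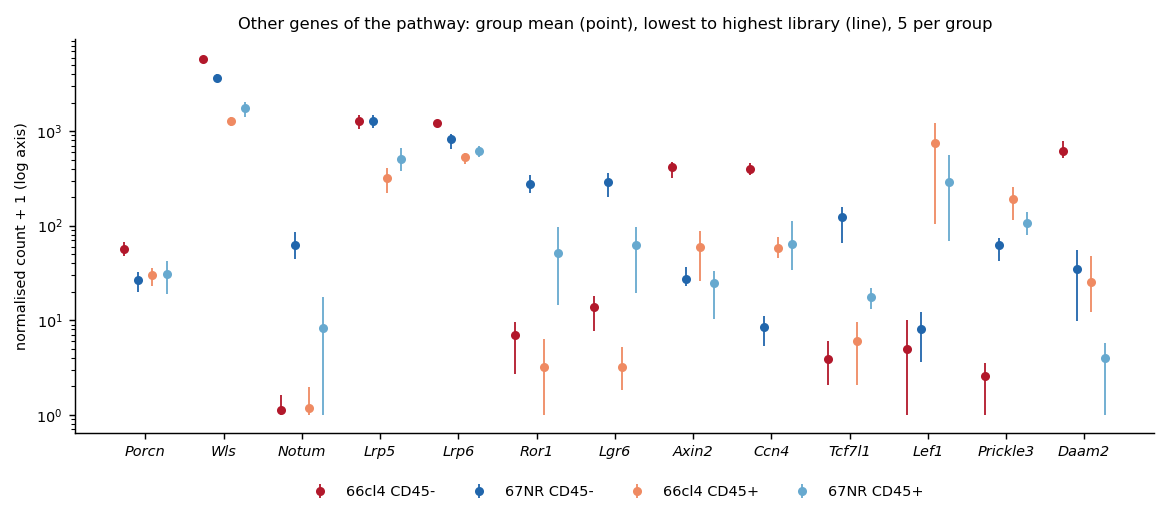
Normalised counts plus 1 on a log axis for 13 other genes of the pathway, as the group mean (point) and the lowest to the highest of 5 libraries (line). Axin2, Ccn4 and Daam2 are highest in 66cl4 CD45- cells and Notum, Ror1, Lgr6 and Tcf7l1 in 67NR CD45- cells, whereas Lef1 is highest in the CD45+ groups.

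In CD45+ cells 50 of the 73 pathway genes were tested, and 3 were called higher and 7 lower in 66cl4, 20% of the 50, against 11.8% of all tested genes, 5.01% higher and 6.82% lower. Axin2 was at 58.3 ± 30.02 in 66cl4 and 23.7 ± 8.78 in 67NR and was called at 1.31 (SE 0.42, adjusted p = 0.04). Whether this call holds without single libraries is not given here. In 66cl4 tumours the level of Axin2 in CD45+ cells was 14.2% of that in CD45- cells. How far RNA of CD45- cells enters the value of Axin2 was not tested. Its tumour effect differed between the gates, at -2.67 (SE 0.45, adjusted p = 9.71e-05), as did that of Ccn4, at -5.84 (SE 0.39, adjusted p = 5.2e-10). Ror1 and Lgr6 were lower in 66cl4 here as well, at -4.40 (SE 0.74, adjusted p = 0.00174) and -4.80 (SE 0.62, adjusted p = 0.000395), and their tumour effect was not called as different between the gates, at 1.20 (SE 0.93, adjusted p = 0.31) and -0.32 (SE 0.61, adjusted p = 0.702). In 67NR tumours the level in CD45+ cells was 18.01% of that in CD45- cells for Ror1 and 21.2% for Lgr6, and the fibroblast markers that were lower in the CD45+ cells of 66cl4 are given with Fzd2. Their part in these differences was not tested.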

How the data were processed

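Poly(A)-selected mRNA of sorted cells was sequenced by the authors (SENSE mRNA-Seq kit V2), and the deposited table holds estimated counts per gene, made by the authors with fastp, Salmon 1.3.0 and tximport, after bcl2fastq 2.2.20. The submitters' notes name a human build, GRCh38, although the identifiers are of mouse genes. No replicates were pooled. Of 740 values of the members 41 were not whole, in 10 members, and all were rounded. The members and gene lists were chosen with earlier results of these data known. Members with a mean of 100 or more in a group were described library by library (9), the other 28 by range and count, and of each pathway list the 3 called genes with the largest change in CD45- cells were named, with Axin2, Lef1, Porcn, Wls, Lrp5, Lrp6, Ror1, Ror2, Rspo3, Frzb and Wif1.

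Genes were filtered by group (minimum count 10, minimum total 15), scaled by TMM and tested by quasi-likelihood in edgeR 4.0.16 (R 4.3.3), with Benjamini-Hochberg adjustment over all genes tested. Each comparison used its 10 libraries and the interaction all 20. Members left out by the filter were tested by a two-sided exact permutation test over all splits. Levels used size factors of DESeq2 1.42.0, which was also an alternative test. TPM used the median length of protein-coding transcripts. Other lengths were tried after seeing the data. In simulated data 197, 193, 191 and 196 of 200 changed genes were recovered in the CD45-, CD45+, 66cl4 and 67NR comparisons, and 187 in the interaction. Of the simulated interaction calls 4.59% were false. Every simulated gene had the same dispersion and every changed gene a fold of the same size. The recovery therefore does not measure the power for these members. Counting intervals are 95% and cover counting error only. The libraries of 1 animal pair the gates by design, with correlations of their deviations of 0.0251 to 0.148 in 66cl4 and -0.00326 to 0.324 in 67NR. Between tumours the animals share only a number (-0.145 to 0.00874 in CD45- and 0.00594 to 0.0829 in CD45+ cells). The alternatives were the block, other scaling, other filters, all libraries in 1 fit, and leaving out libraries.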

Additional observations from a re-analysis of the deposited data

Results flagged for a closer look

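For 8 of 19 tested members the tumour effect differed between the gates by the interaction test of edgeR, as the difference of log2 fold changes, CD45+ minus CD45-. Of all 16453 genes tested 43.1% were called, so 8 of 19 is near the share of all genes. The call of Wnt7b among the 8 was lost in several of the fits given above. The difference was -3.56 for Fzd6, -2.24 for Fzd7, -1.80 for Wnt7b, -4.71 for Wnt6, -1.84 for Dkk3 and -2.12 for Fzd2. For these the fold change of 66cl4 over 67NR was lower in CD45+ than in CD45- cells. The difference was 2.14 for Fzd4 and 6.11 for Dkk2, where that fold change was higher in CD45+ cells. These are differences of the tumour effect and not of the levels in the gates. Of the receptors among them, only Fzd2 had log2 fold changes of opposite sign in the gates. They were 0.41 in CD45- cells, not called, and -1.76 in CD45+ cells, a call lost in several of the fits given above. Dkk3 also had opposite signs, without a call in CD45+ cells. Dkk2 went opposite ways as well, with means of 0.324 in 66cl4 and 16.7 in 67NR CD45- cells, where it failed the filter. In CD45+ cells its means were 21.2 in 66cl4 and 10.8 in 67NR, a call lost in most of the fits given above. In 36 groups of 5 libraries, those of the 9 members with the highest levels, no library stood apart by Dixon's test, where chance gives 1 in 20.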

How the results depend on the processing

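Leaving out 1 library at a time gave 10 to 12 called members in CD45- cells, 2 to 5 in CD45+ cells, 13 to 14 between the gates of 66cl4, 8 to 10 between those of 67NR and 7 to 10 for the interaction. Genes called in all were 4797 to 5070, 1507 to 1880, 6698 to 7020, 6022 to 6461 and 6571 to 7320, against 4774, 1736, 6621, 5992 and 7098 with all libraries. A filter by fewer libraries then tests more genes. In CD45+ cells, 2 members in place of 5 were called with the replicate block, the calls of Wnt11 (1.18, adjusted p = 0.143), Dkk2 (1.21, 0.108) and Fzd2 (-1.37, 0.175) being lost, and 2 without 66cl4 animals 5 and 6. Between the tumours the animals share only a number. Between the gates of 67NR, 15 members in place of 9 were called with DESeq2, 15 with no filter and 14 with all 20 libraries in the fit. Genes called there were 8097 of 21784 tested with DESeq2, 8368 of 29959 with no filter and 6737 of 16453 with all 20 libraries. The main fit called 5992 of 15063 genes. 
In these settings none of the 13 members tested between the gates of 67NR in the main fit changed its call. The added calls were thus of members that the filter of the main fit had left out. The cause of the other moves was not tested. With the block, the log2 fold change reversed for Wnt10a in CD45- cells (-0.21), for Dkk3 (0.12) and Fzd8 (-0.091) in CD45+ cells and for Wnt4 in the interaction (-0.17). Without 66cl4 animals 5 and 6 it reversed for Sfrp1 in CD45- cells (0.24), Fzd8 in CD45+ cells (-0.0082) and the interaction of Wnt4 (-0.12), and with DESeq2 for the interaction of Wnt9a (-0.13). None of these was called. Leaving out 1 library gave a range across 0 for values that were not called, in CD45- cells for Wnt10a (-0.072 to 0.26) and Sfrp1 (-0.42 to 0.18), in CD45+ cells for Dkk3 (-0.22 to 0.087), Fzd8 (-0.16 to 0.58) and Fzd5 (-0.22 to 0.027), and in the interaction for Wnt4 (-0.40 to 0.39), Fzd1 (-0.11 to 0.26) and Sfrp2 (-0.53 to 2.02). Of the log2 fold changes, 74 of 74 with other scaling factors and 73 of 74 with DESeq2 kept direction and side of the threshold. DESeq2 called 6314 genes in CD45- and 2555 in CD45+ cells, and with no filter 6774 were called in CD45- cells. The block changed no call of a member between the gates or in the interaction. Members with few counts limit the depth, since 3 counts are 1.07e-05 to 2.31e-05% of a library.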
